A study of Mus musculus with 152 samples.

Results

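The genes described here belong to the hepatocytes that surround the central vein of the liver lobule, and were followed in mouse liver RNA. They were chosen by name as known Wnt-responsive genes of that layer, namely Glul, Oat, Slc1a2, Rhbg, Cyp1a2, Avpr1a, Lect2, Axin2, Lgr5 and Tbx3, and all 10 were found by symbol among the 54532 genes of the deposited tables. Liver was taken from C57BL/6J mice that began 1 of 2 diets at 8 weeks of age. The first was LIDPAD, a diet that induces non-alcoholic fatty liver disease, and the other a purified control diet. Each diet was fed for 1, 4, 8, 12, 16, 32 or 48 weeks, which gave 14 groups, and the labels name no allele or drug for any of them. After merging blocks of columns that agreed more closely with each other than with other blocks of their group there were 38 libraries, 18 control and 20 LIDPAD. Each diet had 2 libraries at weeks 1, 4, 8 and 12 and 3 at week 16. Week 32 had 4 control and 5 LIDPAD libraries, and week 48 had 3 control and 4 LIDPAD libraries. The labels do not say that libraries came from separate animals, and p-values thus cover only the variation among these libraries, which may be technical. They give neither sex nor hour of collection.

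Endothelial cells of the central vein secrete Wnt ligands and the Wnt enhancer R-spondin 3. In nearby hepatocytes these signals stabilise beta-catenin, which acts with TCF factors at target genes, so that the layer closest to the vein makes glutamine, takes up glutamate and ammonia and carries out much of the oxidation of drugs. Hepatocytes around the portal tract instead make urea and glucose and express few of these genes. In RNA from whole liver, fewer cells of a type and less RNA per cell cannot be told apart.

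The libraries held 10.9 to 53.8 M reads assigned to genes (M, 1000000), with a median of 29.0 M. Values are given as FPM, the authors' size-factor-normalised counts per 1000000. The 6 hepatocyte markers matched by symbol, among them albumin and Apob, were read in every library, at a summed 40780 to 117500 FPM. 4 libraries stood apart from the rest over all genes and were recognised after the data were seen. LIDPAD libraries 1, 2 and 3 of week 32 had median rank correlations of 0.890, 0.901 and 0.919 with all other libraries. The library labelled control 3 of week 48 reached only 0.930 with its own group and 0.968 with a LIDPAD library. Among the other libraries the median was 0.939 to 0.973, and the best correlation within the group was 0.968 to 0.993. By the best correlation within the group, LIDPAD 1, 2 and 3 of week 32 had 0.953, 0.954 and 0.967. LIDPAD 3 thus lay next to the lowest of the other libraries on that measure. Results of weeks 32 and 48 are therefore given with and without the 4 libraries that stood apart. Week 32 also mixed 2 sets of libraries that differed in how reads were divided over the deposited columns. Controls 1 to 3 and LIDPAD 1 to 3 came from the first set, and control 4 and LIDPAD 4 and 5 from the second. Without the 3 LIDPAD libraries that stood apart, week 32 sets controls of both sets against LIDPAD libraries of the second set alone, and set and diet are then partly confounded. On the authors' scaling the median log2 change of all genes lay between -0.008 and 0.038 in each week. Rescaling each library to the same total would raise it by 0.009 at week 1, 0.109 at week 8, 0.196 at week 16 and 0.288 at week 32.

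The sequences just upstream of 4 of the genes are shown because the values below turn on them or on the pathway they report. Glul had the highest level, Avpr1a had the lowest ratio of LIDPAD to control, Axin2 is a widely used Wnt target, and Lect2 held a match to a TCF-type word. Each is the 250 bases before the RefSeq start on the gene's strand, in GRCm38.p6, and capitals mark a match. The 4 words searched on both strands were ATCAAAG and the 3 words that start with TT, with AA or with TA in place of its AT.
Glul: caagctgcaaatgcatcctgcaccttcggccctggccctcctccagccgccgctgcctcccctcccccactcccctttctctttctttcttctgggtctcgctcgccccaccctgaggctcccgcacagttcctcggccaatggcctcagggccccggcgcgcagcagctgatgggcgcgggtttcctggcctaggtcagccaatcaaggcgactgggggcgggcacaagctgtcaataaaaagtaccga
Avpr1a: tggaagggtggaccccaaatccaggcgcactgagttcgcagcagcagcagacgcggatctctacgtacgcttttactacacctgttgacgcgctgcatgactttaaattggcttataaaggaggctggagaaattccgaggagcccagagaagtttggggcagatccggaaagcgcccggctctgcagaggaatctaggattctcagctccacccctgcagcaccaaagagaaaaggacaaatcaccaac
Axin2: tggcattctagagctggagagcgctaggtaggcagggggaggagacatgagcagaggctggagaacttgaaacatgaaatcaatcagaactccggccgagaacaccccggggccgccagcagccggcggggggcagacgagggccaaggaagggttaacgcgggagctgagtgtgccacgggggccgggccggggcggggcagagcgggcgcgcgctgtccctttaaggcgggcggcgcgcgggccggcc
Lect2: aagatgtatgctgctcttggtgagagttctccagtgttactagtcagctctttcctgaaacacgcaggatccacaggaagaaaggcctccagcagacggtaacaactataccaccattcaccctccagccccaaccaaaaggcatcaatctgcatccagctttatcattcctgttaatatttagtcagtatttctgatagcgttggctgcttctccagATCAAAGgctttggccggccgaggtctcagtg
These windows lie at chr1:153899679-153899928 on the plus strand for Glul, chr10:122448249-122448498 on the plus strand for Avpr1a, chr11:108920099-108920348 on the plus strand for Axin2 and chr13:56548539-56548788 on the minus strand for Lect2. Of the 10 genes, 7 were in the RefSeq table, and Lgr5, Rhbg and Tbx3 were not. Counted from the base just before the start as -1, the match in Lect2 began at -32. Slc1a2 held ATCAAAG at -207, inside its longer annotated gene, and Cyp1a2 held TTCAAAG at -244. Glul, Oat, Axin2 and Avpr1a held none of the 4 words in this window. Of 32851 windows of the same length, 4874 (14.8%) held at least 1. A match is a description of letters and not a bound site.

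**Figure D1:**
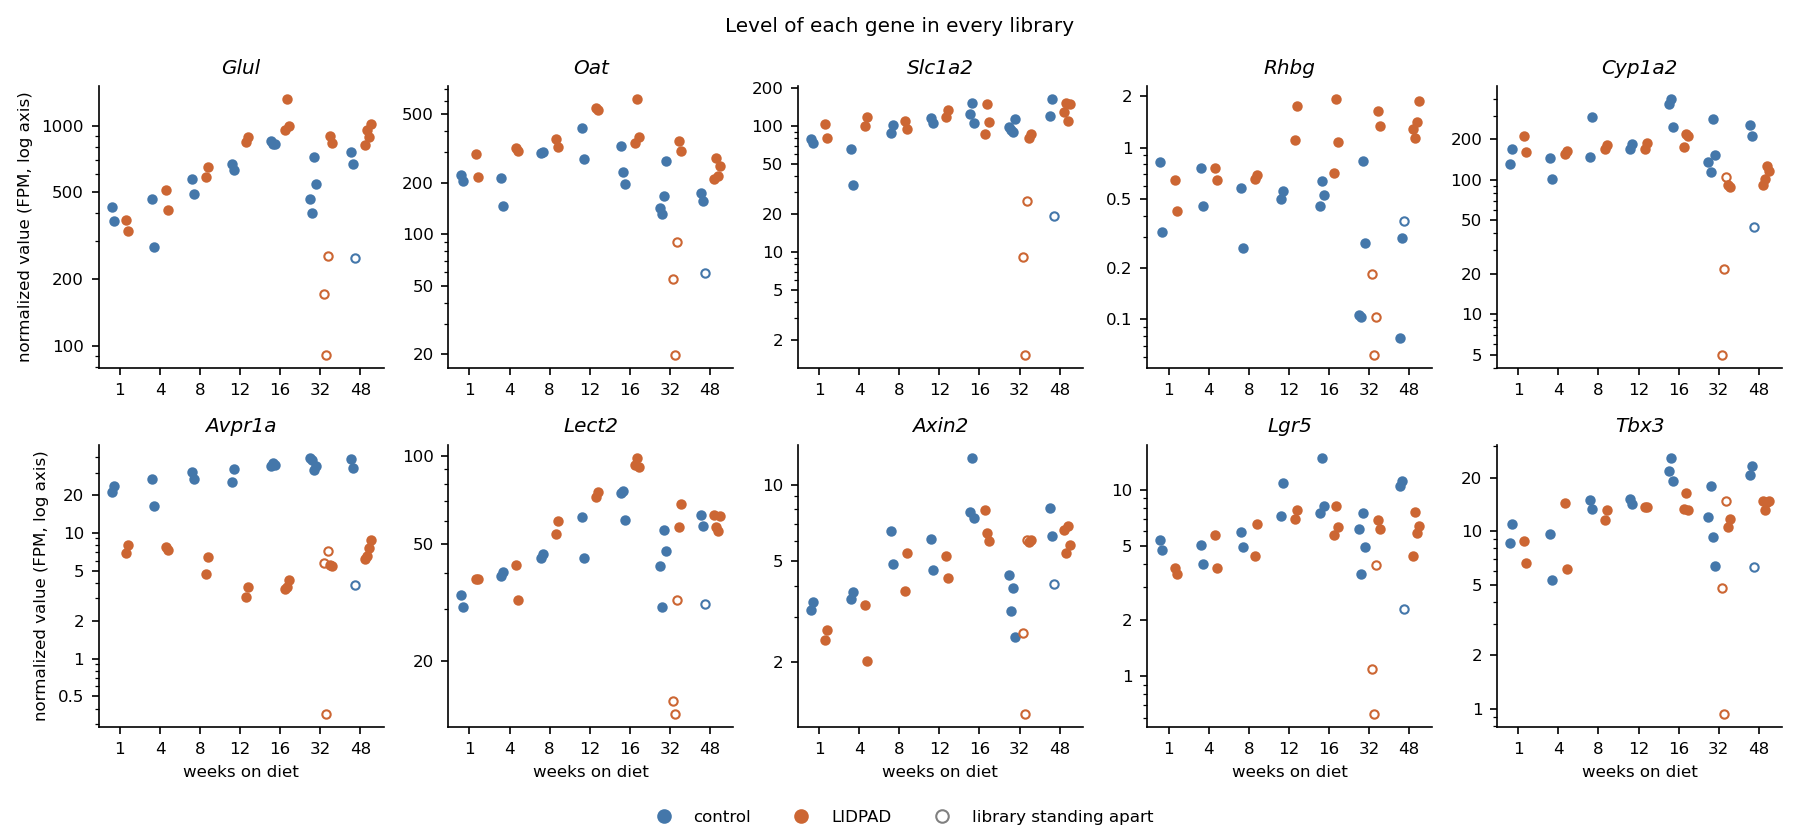
Normalised value (FPM, log axis) of each of the 10 genes in every library against weeks on diet, control in blue and LIDPAD in orange. Open circles are the 4 libraries that stood apart. Avpr1a was lower in every LIDPAD library than in every control of its week except at week 48, where control 3 read 3.86 FPM.

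The 10 genes did not move as one group. Avpr1a was called lower in LIDPAD liver in 5 of the 7 weeks. Oat was called higher at weeks 12 and 16 and Lect2 at week 16, and Cyp1a2 and Tbx3 were called lower at week 16. Glul, Slc1a2, Axin2 and Lgr5 were called in no week with all libraries. Called here means an adjusted p under 0.05 by limma on log2(FPM + 0.5), with Benjamini-Hochberg adjustment over all genes tested in that week. Statements below that groups did or did not overlap only describe the values. The share of all genes without overlap was not counted, and with 2 libraries per diet such separation is common by chance. At week 1, 1 of the 9 genes tested was called, lower, where 0.726% of all 12538 genes tested were called higher and 1.27% lower. At week 4 no gene of the 9 was called by limma, with 3 at an unadjusted p under 0.05, none by edgeR's quasi-likelihood test and 3 by DESeq2. The share called by limma that week was 0.121% higher and 0.166% lower. Of the 13237 genes tested, limma called 38, edgeR 40 and DESeq2 308. At week 8, 1 of 9 was called, lower, against 3.85% higher and 1.75% lower of all genes. At week 12, 2 of 10 were called higher and 1 lower, against 8.99% and 6.25%. At week 16, 2 of 9 were called higher and 3 lower, against 16.3% and 12%. At week 32, 1 of 9 was called, lower, against 18% higher and 8.82% lower of all genes. At week 48, 1 of 10 was called, higher, against 6.54% and 3.34%. At week 16 the higher count was near the share of all genes and the lower count above it, though the test asks nothing of the genes as a list. Without the libraries that stood apart, week 32 had 3 of 10 higher and 1 lower, against 13.4% and 6.73% of all genes. Week 48 then had 3 higher and 4 lower, against 22.3% and 15.4%. The counts of weeks 12 and 48, and those without the libraries that stood apart at weeks 32 and 48, include Rhbg, which passed the minimum level only through LIDPAD.

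**Figure D2:**
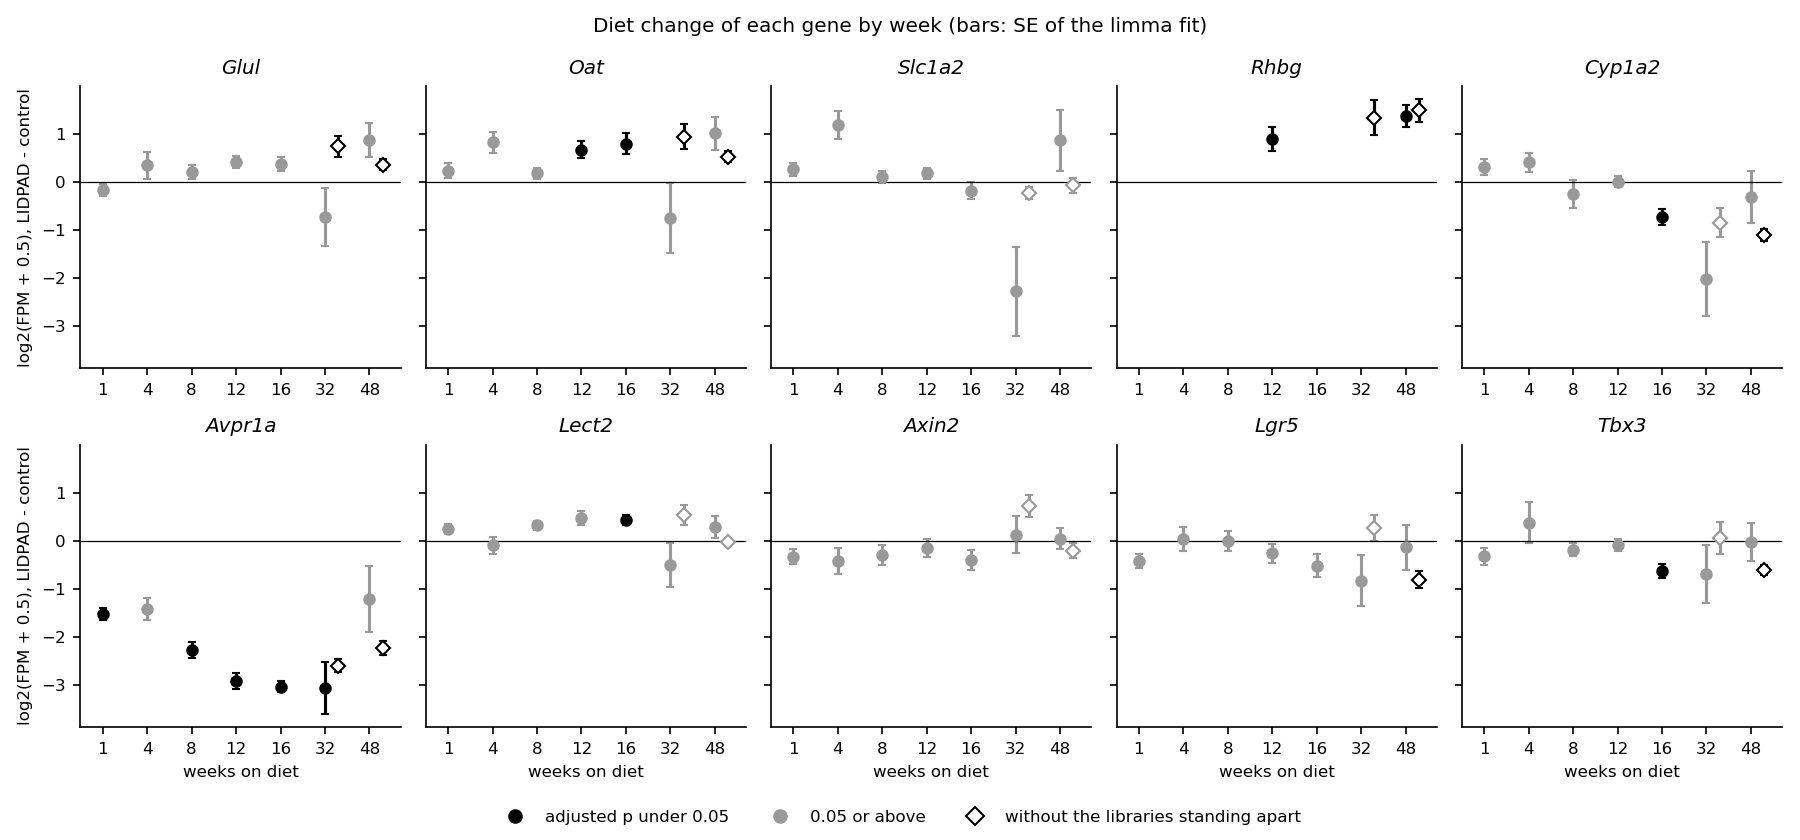
Log2 difference, LIDPAD minus control, of log2(FPM + 0.5) for each gene by week, with bars for the SE of the limma fit. Black points had an adjusted p under 0.05 and grey points did not, and open diamonds leave out the libraries that stood apart. Avpr1a stood at -1.52 at week 1 and -3.03 at week 16, while Oat lay above 0 at every week but week 32 with all libraries.

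Glul (ENSMUSG00000026473, chr1:153899944-153909723, plus strand) encodes glutamine synthetase, which joins ammonia to glutamate and is confined in healthy liver to the layer next to the central vein. At week 12 the controls read 670 and 630 FPM and the LIDPAD libraries 847 and 888. At week 16 the controls read 848, 824 and 823 FPM and the LIDPAD libraries 955, 1324 and 992. All LIDPAD libraries were above all controls in both weeks, which adds no support to a change that was not called. The log2 change was 0.42 ± 0.12 (SE, adjusted p = 0.0548) at week 12 and 0.38 ± 0.14 (adjusted p = 0.0665) at week 16, so neither was called. Rescaled to equal totals they became 0.62 (adjusted p = 0.00742) and 0.58 (adjusted p = 0.0045). At week 1 the controls read 426 and 368 FPM against 373 and 334, with overlap.

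At week 32 the 4 controls of Glul read 463, 400, 720 and 542 FPM. The LIDPAD libraries that stood apart read 172, 90.2 and 254 FPM, and LIDPAD 4 and 5 read 896 and 837. The LIDPAD libraries thus split into a part below all controls and a part above all controls. With all of them the log2 change was -0.73 ± 0.60 (SE, adjusted p = 0.413), and without the 3 it was 0.74 ± 0.22 (adjusted p = 0.0443). At week 48 the controls read 759, 671 and, in the library labelled control 3, 249 FPM, and the LIDPAD libraries 820, 951, 886 and 1020. The change there was 0.87 ± 0.35 (SE, adjusted p = 0.162) with control 3 and 0.36 ± 0.11 (adjusted p = 0.0295) without it.

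Oat (ENSMUSG00000030934, chr7:132557478-132576398, minus strand) encodes ornithine aminotransferase, which turns ornithine into a precursor of glutamate. Its controls read 415 and 275 FPM at week 12 and its LIDPAD libraries 548 and 528. At week 16 they read 328, 230 and 196 against 341, 616 and 371 FPM. The groups did not overlap in either week. Oat was called higher at week 12, with a log2 change of 0.67 ± 0.18 (SE, adjusted p = 0.0383), and at week 16, with 0.80 ± 0.23 (adjusted p = 0.0216). Both calls rested on few libraries. At week 12 leaving out either LIDPAD library gave an adjusted p of 0.14 or 0.146, and at week 16 leaving out control 2, control 3 or LIDPAD 2 gave 0.0578, 0.0796 or 0.0599.

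At week 32 Oat split as Glul did. LIDPAD libraries 1 to 3 of week 32 read 55.0, 19.7 and 89.9 FPM, below all 4 controls at 143, 132, 167 and 267. LIDPAD 4 and 5 read 351 and 306 FPM, above all controls. The log2 change was -0.75 ± 0.72 (SE, adjusted p = 0.487) with all libraries and 0.94 ± 0.25 (adjusted p = 0.031) without those 3. At week 48 the controls read 174, 157 and 59.3 FPM, the last being control 3, and the LIDPAD libraries 209, 279, 219 and 251. The change was 1.02 ± 0.34 (SE, adjusted p = 0.0998) with control 3 and 0.53 ± 0.12 (adjusted p = 0.00463) without it.

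Slc1a2 (ENSMUSG00000005089, chr2:102658659-102790784, plus strand) encodes a high-affinity glutamate transporter best known from astrocytes, which in liver serves the perivenous layer. It was called in no week by limma with all libraries. At week 4 its controls read 65.3 and 34.4 FPM and its LIDPAD libraries 99.8 and 118, without overlap, a log2 change of 1.19 ± 0.30 (SE, adjusted p = 0.223). At week 16 the groups overlapped, at 125, 153 and 105 against 86.7, 148 and 108 FPM, and the change of -0.18 (adjusted p = 0.511) became 0.03 on rescaling. LIDPAD libraries 1, 2 and 3 of week 32 read 9.18, 1.52 and 25.2 FPM, where the 4 controls read 89.7 to 113 and the other LIDPAD libraries 80.4 and 85.9. The library labelled control 3 of week 48 read 19.5 FPM, against 110 to 164 in the other 6, and the change at week 48 was 0.87 ± 0.64 (SE, adjusted p = 0.436) with it and -0.07 ± 0.15 (adjusted p = 0.735) without it. Its change at week 32 was -2.27 ± 0.92 (SE, adjusted p = 0.0917) with all and -0.23 ± 0.13 (adjusted p = 0.231) without the 3.

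Rhbg (ENSMUSG00000104445, chr3:88242874-88254709, minus strand) encodes an ammonia channel of the Rh family. It was the least abundant of the genes, with 1 to 65 reads per library. After 16 weeks its controls read 0.455, 0.642 and 0.526 FPM and its LIDPAD libraries 0.714, 1.92 and 1.08. At week 48 the controls read 0.0777, 0.297 and 0.373 FPM and the LIDPAD libraries 1.28, 1.13, 1.40 and 1.87. Its LIDPAD libraries were above all controls in both of these weeks. With all libraries Rhbg had enough libraries at 1 FPM or more to be tested only at weeks 12 and 48, and all of these were LIDPAD libraries. It had to differ there to be tested, so its calls add no support. For the record they were a log2 change of 0.89 ± 0.25 (SE, adjusted p = 0.0456) and 1.36 ± 0.23 (adjusted p = 0.0165). Without the libraries that stood apart it was also tested at week 32, again through LIDPAD alone, at 1.33 ± 0.37 (SE, adjusted p = 0.0335), and stood at 1.49 ± 0.24 (adjusted p = 0.000751) at week 48.

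Cyp1a2 (ENSMUSG00000032310, chr9:57676937-57683703, minus strand) encodes a cytochrome P450 that oxidises caffeine and aromatic amines. At week 12 the controls read 169 and 185 FPM and the LIDPAD libraries 168 and 188, a log2 change of 0.01 (adjusted p = 0.973). After 16 weeks the controls read 366, 400 and 246 FPM and the LIDPAD libraries 175, 218 and 212. Every LIDPAD library was then below every control, and Cyp1a2 was called lower, by -0.72 ± 0.17 (SE, adjusted p = 0.00813).

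At week 32 the controls of Cyp1a2 read 135, 115, 284 and 152 FPM. LIDPAD 1, 2 and 3 read 4.93, 21.5 and 105 FPM, and LIDPAD 4 and 5 read 90.9 and 88.1. All 5 LIDPAD libraries were below all controls, those that stood apart and the other two alike. The change was -2.01 ± 0.78 (SE, adjusted p = 0.0782) with all and -0.84 ± 0.30 (adjusted p = 0.0852) without the 3. At week 48 the controls read 254, 212 and, in control 3, 44.4 FPM, and the LIDPAD libraries 91.4, 101, 128 and 116. Control 3 lay below every LIDPAD library, and the change was -0.31 (adjusted p = 0.767) with it and -1.10 ± 0.13 (SE, adjusted p = 8.83e-05) without it.

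Avpr1a (ENSMUSG00000020123, chr10:122448499-122453452, plus strand) encodes the V1a vasopressin receptor, which in hepatocytes raises calcium and glycogen breakdown in response to the hormone. It was the one gene of the 9 tested that was called at week 1. After 1 week the controls read 21.0 and 23.5 FPM and the LIDPAD libraries 6.90 and 7.96. After 4 weeks they read 26.4 and 16.3 against 7.66 and 7.32 FPM, and after 8 weeks 30.5 and 26.5 against 4.70 and 6.45. The control mean was 3.00, 2.86 and 5.11 times the LIDPAD mean in these weeks. Avpr1a was called lower at week 1, with a log2 change of -1.52 ± 0.12 (SE, adjusted p = 0.00304), and at week 8, with -2.27 ± 0.17 (adjusted p = 0.00214). At week 4 the change was -1.42 ± 0.24 (SE, adjusted p = 0.0977), and it was called with control 1 left out (adjusted p = 0.0174) or control 2 left out (adjusted p = 0.00392), but not with LIDPAD 1 (adjusted p = 0.145) or LIDPAD 2 (adjusted p = 0.187) left out.

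The log2 change of Avpr1a was largest at weeks 12 to 32. Controls at week 12 read 25.4 and 32.1 FPM against 3.08 and 3.68 on LIDPAD. At week 16 they read 33.7, 36.0 and 34.6 FPM against 3.57, 3.71 and 4.20, so that the control mean was 9.09 times the LIDPAD mean. The log2 change was -2.91 ± 0.16 (SE, adjusted p = 1.81e-05) at week 12 and -3.03 ± 0.12 (adjusted p = 1.28e-07) at week 16. On the log2(FPM + 0.5) scale these understate the ratio of the means. At week 32 the controls read 39.4, 38.0, 31.2 and 33.8 FPM. LIDPAD 1 to 5 read 5.79, 0.361, 7.11, 5.52 and 5.41 FPM, all below every control. The low value of LIDPAD 2 rested on 6 reads. The change was -3.06 ± 0.54 (SE, adjusted p = 0.002) with all libraries and -2.59 ± 0.14 (adjusted p = 2.35e-05) without LIDPAD 1 to 3, so the call stood in both.

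At week 48 controls 1 and 2 of Avpr1a read 38.6 and 32.6 FPM, and the library labelled control 3 read 3.86, below all 4 LIDPAD libraries at 6.15, 6.54, 7.58 and 8.79. With control 3 the change was -1.21 ± 0.68 (SE, adjusted p = 0.303), and without it -2.22 ± 0.14 (adjusted p = 1.98e-06). Apart from that library, all controls of the course read 16.3 FPM or more and all LIDPAD libraries 8.79 FPM or less. The tables of the weeks were normalised separately, so levels of different weeks are set side by side only as a description. Fitted with 1 spread shared by all groups, the calls of week 1 (adjusted p = 0.848) and week 8 (adjusted p = 0.178) were lost.

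Lect2 (ENSMUSG00000021539, chr13:56542464-56548502, minus strand) encodes a protein that hepatocytes secrete into blood. At week 12 its controls read 61.8 and 45.1 FPM and its LIDPAD libraries 72.2 and 75.3. At week 16 it read 74.4, 75.8 and 60.4 FPM in controls against 92.9, 98.5 and 91.5 on LIDPAD. It was called higher at week 16 only, by 0.43 ± 0.11 (SE, adjusted p = 0.0108). At week 12 the change was 0.48 ± 0.15 (SE, adjusted p = 0.0657). At week 48 the groups overlapped, at 62.9, 57.8 and 31.4 FPM against 62.7, 57.1, 55.6 and 62.6, where 31.4 was the library labelled control 3. The change was 0.29 (adjusted p = 0.458), and without that library -0.02 with a 95% interval of -0.20 to 0.16. LIDPAD libraries 1 to 3 of week 32 read 14.6, 13.2 and 32.4 FPM and LIDPAD 4 and 5 57.4 and 68.5, around controls of 30.6 to 56.0. The change was -0.51 ± 0.46 (SE, adjusted p = 0.459) with all libraries and 0.54 ± 0.22 (adjusted p = 0.119) without LIDPAD 1 to 3.

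Axin2 (ENSMUSG00000000142, chr11:108920349-108950783, plus strand) encodes a scaffold of the complex that degrades beta-catenin and is itself induced by Wnt signals as negative feedback. It was low, at 20 to 318 reads per library. At week 1 its controls read 3.19 and 3.45 FPM and its LIDPAD libraries 2.43 and 2.66, without overlap. After 16 weeks the controls read 7.81, 12.8 and 7.42 FPM and the LIDPAD libraries 7.98, 6.47 and 6.00, with overlap. The log2 change was -0.33 (adjusted p = 0.366) and -0.40 ± 0.20 (SE, adjusted p = 0.172). At week 12 the change of -0.15 (adjusted p = 0.662) became 0.03 on rescaling. At week 32 the controls read 4.40, 3.18, 3.93 and 2.51 FPM and LIDPAD 1 to 5 2.59, 1.24, 6.05, 5.94 and 6.03. Here the 3 LIDPAD libraries that stood apart did not agree among themselves, and the change was 0.13 (adjusted p = 0.846) with them and 0.72 ± 0.23 (SE, adjusted p = 0.0586) without them. At week 48 it was 0.04 (adjusted p = 0.924) with control 3, which read 4.07 FPM, and -0.205 ± 0.15 (SE, adjusted p = 0.319) without it.

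Lgr5 (ENSMUSG00000020140, chr10:115450311-115587780, minus strand) encodes a receptor for R-spondins that strengthens Wnt signals and marks the cells next to the central vein. Its controls at week 16 read 7.53, 14.9 and 8.19 FPM and its LIDPAD libraries 5.73, 8.18 and 6.29, a log2 change of -0.52 ± 0.23 (SE, adjusted p = 0.125). At week 48 controls 1 and 2 read 10.5 and 11.1 FPM, control 3 read 2.30, and the LIDPAD libraries read 4.43, 7.61, 5.84 and 6.37. The change there was -0.14 (adjusted p = 0.891) with control 3, or 0.13 on rescaling, and -0.81 ± 0.18 (SE, adjusted p = 0.00482) without it. In LIDPAD 1 and 2 of week 32 Lgr5 was at 1.09 and 0.626 FPM, where the controls read 3.53 to 7.56. LIDPAD 3 to 5 read 3.96, 6.86 and 6.19 FPM. The change was -0.83 ± 0.53 (SE, adjusted p = 0.285) with all libraries and 0.26 ± 0.27 (adjusted p = 0.549) without LIDPAD 1 to 3.

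Tbx3 (ENSMUSG00000018604, chr5:119670669-119684724, plus strand) encodes a T-box transcription factor that mostly represses its targets. After 16 weeks the controls read 21.9, 25.9 and 19.2 FPM and the LIDPAD libraries 13.3, 16.3 and 13.2. All were below the controls, and Tbx3 was called lower by -0.62 ± 0.14 (SE, adjusted p = 0.00581). At week 12, with 15.1 and 14.2 against 13.7 and 13.6 FPM, the change was -0.10 (adjusted p = 0.676) and 0.10 on rescaling. At week 48 controls 1 and 2 read 20.8 and 23.4 FPM, control 3 read 6.24, and the LIDPAD libraries 14.7, 13.2, 14.5 and 14.9. The change was -0.03 (adjusted p = 0.974) with control 3, or 0.25 on rescaling, and -0.61 ± 0.10 (SE, adjusted p = 0.000697) without it. After 32 weeks the controls read 6.39 to 18.0 FPM and LIDPAD 1 to 5 4.78, 0.934, 14.8, 10.5 and 11.8. The change was -0.69 ± 0.61 (SE, adjusted p = 0.443) with all and 0.06 ± 0.33 (adjusted p = 0.927) without LIDPAD 1 to 3.

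**Figure D3:**
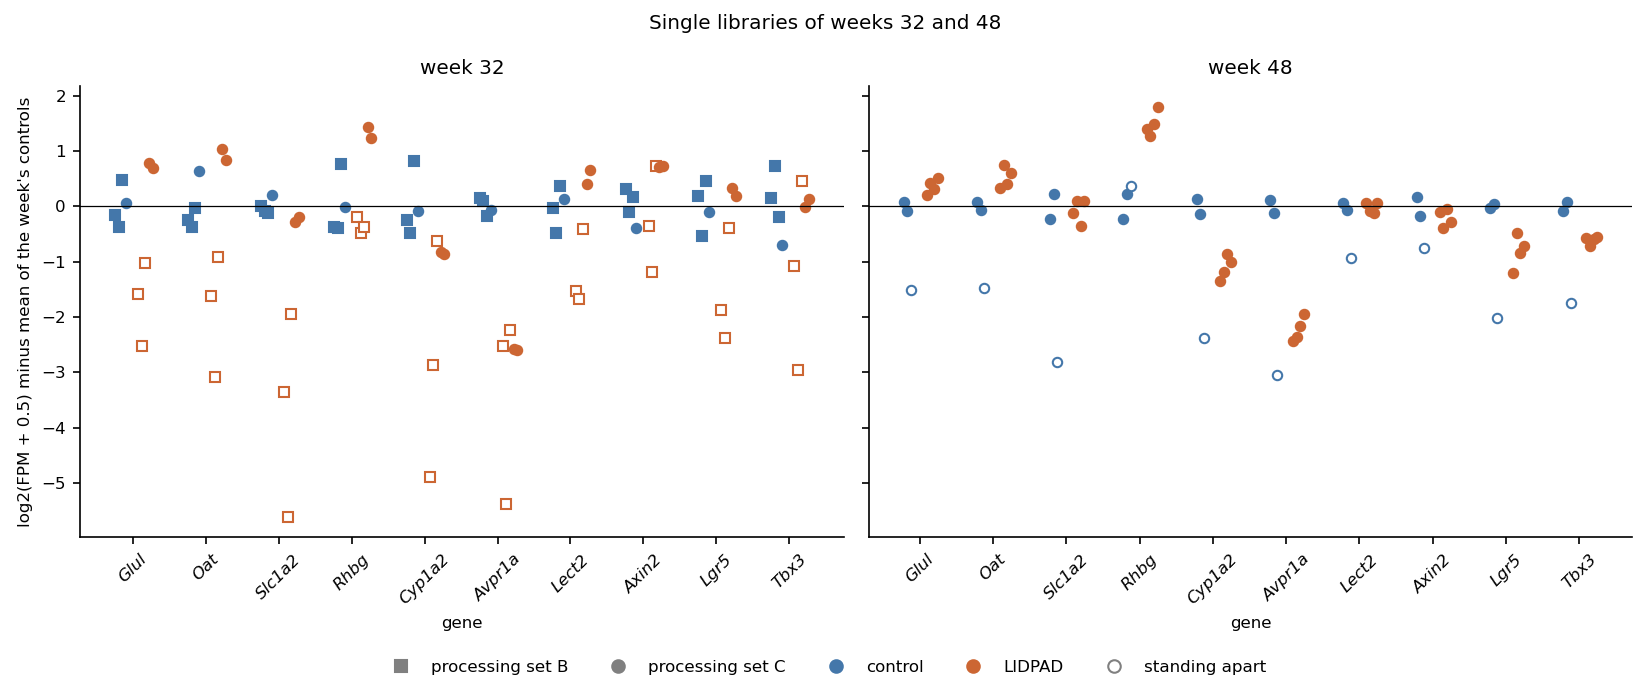
Distance of each library of weeks 32 and 48 from the mean of that week's controls, on the log2(FPM + 0.5) scale, with control 3 of week 48 left out of that mean. Squares and circles are the 2 sets of libraries, blue is control, orange is LIDPAD and open symbols are the libraries that stood apart. At week 48, 9 of the 10 genes were lower in control 3 than in both other controls, and Rhbg was not.

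The libraries that stood apart also differed in markers of other cells. The library labelled control 3 of week 48 read a summed 212 FPM over 8 markers of recruited macrophages, against 51.2 and 62.8 in controls 1 and 2 and 450.0 to 574.3 on LIDPAD. LIDPAD 1 of week 32 read 1460 FPM over 5 B cell markers and 2126 over 5 erythroid markers, where the other LIDPAD libraries of that week read 28.1 to 40.8 and 333 to 399. LIDPAD 2 read 1336 FPM over 8 Kupffer cell markers and 1375 over those of recruited macrophages, against 262 to 393 and 363 to 548. In LIDPAD 3 the markers of T and NK cells summed to 6.71 FPM, against 8.91 and 8.54 in LIDPAD 1 and 2, 4.87 and 3.69 in LIDPAD 4 and 5 and 1.08 to 2.17 in controls. Mitochondrial rRNA made up 25.5%, 30.2% and 20.9% of reads in LIDPAD 1, 2 and 3, 26.5% in each of LIDPAD 4 and 5 and 18.3% to 23.0% in the week 32 controls. It made up 26.0% in control 3 of week 48, against 23.0% and 23.2% in controls 1 and 2 and 23.8% to 26.3% on LIDPAD. The hepatocyte markers summed to 117500 FPM in LIDPAD 1 of week 32. They summed to 40780 to 47690 in LIDPAD 2 to 5 and 95200 to 113200 in that week's controls. In control 3 of week 48 they summed to 76050 FPM, against 101700 and 99330 in controls 1 and 2 and 41950 to 52140 on LIDPAD. The part of these values in the low levels of the pericentral genes was not tested.

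Between the diets, too, the cell markers moved beside the genes. At week 16 the 6 hepatocyte markers summed to 85530 to 98630 FPM in controls and 49400 to 57090 on LIDPAD. Of these, 4 of 6 were called lower, against 12% of all genes. All 8 markers of recruited macrophages were called higher, at 35.0 to 63.1 FPM in controls and 256.2 to 361.7 on LIDPAD. So were 9 of 10 of stellate cells and fibroblasts, at 326 to 403 and 866 to 946. Of all genes 16.3% were called higher that week. Only 3 of the 8 macrophage markers passed the minimum level at week 1. Any that passed at week 16 only through LIDPAD had to differ to be tested. The 7 central vein endothelium markers, Rspo3 and Wnt2 among them, summed to 23.4 to 28.3 FPM against 28.7 to 30.7. Of the 6 tested, 1 was called higher, which is near the 16.3% of all genes. The part of these shifts in the members' changes was not tested. At week 1, when Avpr1a was already called lower, the hepatocyte markers summed to 74390 to 76800 FPM in controls and 60420 to 70600 on LIDPAD, and the central vein markers to 14.9 to 18.8 and 15.9 to 20.8. Of the other lists given here, 5 did not overlap between the diets at week 1. Kupffer cell markers summed to 147 to 165 FPM in controls and 196 to 271 on LIDPAD, stellate cell markers to 246 to 268 and 285 to 385, and 5 erythroid markers to 473 to 519 and 330.3 to 394. B cell markers summed to 4.74 to 6.29 FPM in controls and 3.62 to 4.59 on LIDPAD. The 5 adipocyte markers, of which Lep and Retn were at 0, summed to 0.342 to 0.904 FPM and 10.4 to 38.3. At week 16 they summed to 0.311 to 3.80 and 37.9 to 70.5 FPM. Lep and Retn were then again at 0 in both diets, and Adipoq was at 0 in all LIDPAD libraries. In each of these weeks only 1 of the 5 passed the minimum level. Sinusoidal endothelium markers overlapped at week 1, at 217 to 245 and 235 to 241 FPM, as did those of T and NK cells, at 1.46 to 2.05 and 1.51 to 1.89, and of recruited macrophages, at 26.7 to 38.0 and 37.5 to 84.3. The part of these lists in the change of Avpr1a was not tested. Clock genes also differed between the diets. The log2 ratio of the clock gene Arntl to the clock output gene Dbp, which oppose each other over the day, was lower on LIDPAD in every week. LIDPAD minus control, it differed by -4.29 at week 1, -4.78 at week 4, -3.86 at week 8 and -3.2 at week 12. The difference was -0.81 at week 16, -1.01 at week 32 and -2.41 at week 48. Its part in these results was not tested.

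Averaged over the 7 weeks in 1 fit of 12330 genes, Avpr1a alone of the 9 genes tested was called, with a log2 change of -2.20 ± 0.24 (SE, adjusted p = 4.59e-08, limma). Of all genes 20.5% were called higher and 18.7% lower. Oat was at 0.43 ± 0.25 (SE, adjusted p = 0.184), Glul at 0.19 ± 0.21 (adjusted p = 0.512) and Axin2 at -0.20 ± 0.14 (adjusted p = 0.274). Leaving out the libraries that stood apart brought the average of Oat to 0.60 ± 0.10 (SE, adjusted p = 1.92e-05), of Glul to 0.33 ± 0.08 (adjusted p = 0.000775) and of Lect2 to 0.27 ± 0.06 (adjusted p = 0.00101). Cyp1a2 was then lower, at -0.31 ± 0.11 (SE, adjusted p = 0.0184), and Avpr1a at -2.28 ± 0.07 (adjusted p = 5.4e-19). In that fit 25% of all genes were called higher and 24.4% lower, so 3 genes higher and 2 lower of 9 were near these shares.

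A difference between late weeks (16, 32 and 48) and early weeks (1, 4, 8 and 12) was called by limma for none of the 9 genes with all libraries, also at an unadjusted p under 0.05, while 15.4% of all genes were called. The F test for any difference between weeks called none of the 9, also unadjusted, against 10.8% of all genes. Neither edgeR nor DESeq2 was run on these joint contrasts. Without the libraries that stood apart, the late change was lower than the early one for Cyp1a2, by -1.005 ± 0.21 (SE, adjusted p = 0.000932), for Slc1a2, by -0.60 ± 0.17 (adjusted p = 0.0086), and for Avpr1a, by -0.59 ± 0.13 (adjusted p = 0.00124). The F test then also called these 3 of 9, against 20.2% of all genes, and 27% of all genes were called for late against early. Week and set of libraries cannot be told apart in these contrasts.

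The rest of the Wnt pathway was read from lists of ligands, receptors, intracellular members and inhibitors. Among 24 genes of ligands, R-spondins and their secretion, 3 of 7 tested were called higher and 1 lower at week 16, when 16.3% and 12% of all genes were. Of the 3, Wnt5a, passed the minimum level only through LIDPAD, and the 1 that was lower, Porcn, only through controls, so both had to differ to be tested. Wls, which carries Wnt proteins to the cell surface, rose from 5.17 ± 0.62 to 11.1 ± 1.78 FPM (SD, n = 3 each), a log2 change of 1.03 ± 0.16 (SE, limma adjusted p = 0.00061). Wnt5b rose from 1.64 ± 0.635 to 4.36 ± 0.239 FPM (SD, n = 3 each), by 1.22 ± 0.22 (SE, limma adjusted p = 0.00182). Over the weeks Wnt5b averaged 0.37 ± 0.12 (SE, limma adjusted p = 0.0136). Porcn, which adds the lipid that Wnt proteins need for secretion, fell from a mean of 2.60 to 0.926 FPM (adjusted p = 0.0051). Rspo3, the R-spondin of the central vein, averaged 0.20 ± 0.12 over the weeks (SE, adjusted p = 0.19 by limma), or 0.22 ± 0.08 (adjusted p = 0.022) without the libraries that stood apart. Wnt2 averaged -0.05 ± 0.12 (SE, limma adjusted p = 0.773).

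Of 17 receptor genes, 1 of 11 was called higher and 3 lower at each of weeks 12 and 16. The shares of all genes were 8.99% and 6.25% at week 12 and 16.3% and 12% at week 16, so the higher count was near or below them. Lgr4, the R-spondin receptor of most hepatocytes and a relative of Lgr5, fell at week 16 from 76.5 ± 6.61 to 37.7 ± 3.39 FPM (SD, n = 3 each), a log2 change of -1.01 ± 0.10 (SE, limma adjusted p = 5.72e-05). Fzd4, a Wnt receptor, rose at week 12 by 0.63 (adjusted p = 0.00847). Lrp5, a Wnt co-receptor, averaged -0.37 ± 0.06 over the weeks (SE, limma adjusted p = 3.82e-05). Among 18 genes inside the cell 3 of 16 were called lower at week 16, against 12% of all genes, and Tcf7, a TCF factor, fell by 0.72 on the log2 scale (adjusted p = 0.00927). Over all weeks 6 of 16 of these were called lower, against 18.7% of all genes.

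Among 21 inhibitors and feedback genes 3 of 9 were called higher and 2 lower at week 16, against 16.3% and 12% of all genes. The secreted inhibitor Frzb rose by 1.61 (limma adjusted p = 0.000135) and Dkk3, of the Dickkopf family, by 1.25 (adjusted p = 0.000562). The 2 that fell were feedback targets of the pathway, as Axin2 is. Znrf3, a ligase that removes Wnt receptors, fell from 19.9 ± 5.12 to 13.0 ± 0.832 FPM (SD, n = 3 each), a log2 change of -0.57 ± 0.17 (SE, limma adjusted p = 0.0248). Notum, an enzyme that inactivates Wnt proteins, fell from 14.4 ± 0.782 to 10.5 ± 2.20 FPM, by -0.46 ± 0.15 (SE, adjusted p = 0.0425). The third gene of the list called higher at week 16, Tnfrsf19, rose by 0.65 (limma adjusted p = 0.00551). It averaged 0.72 ± 0.15 over the weeks (SE, limma adjusted p = 0.000396). Feedback genes thus did not all fall at week 16. Over the weeks Rnf43 and Nkd1 averaged 0.02 ± 0.15 and 0.05 ± 0.08 (SE, limma adjusted p = 0.936 and 0.678). On that measure Znrf3 at -0.165 ± 0.07 and Notum at -0.323 ± 0.16 were not called either (SE, limma adjusted p = 0.0559 and 0.108). Without the libraries that stood apart both were called (adjusted p = 0.0123 and 0.00231), and Rnf43 and Nkd1 were not (0.731 and 0.874).

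Other hepatocyte genes of the same region moved in both directions. Of 24 further pericentral genes, 9 were called higher and 1 lower at week 12, with a median log2 change of 0.28, and 7 higher and 7 lower at week 16, with a median of -0.29. Of all genes, 8.99% were called higher and 6.25% lower at week 12, and 16.3% and 12% at week 16. The median of all genes was -0.001 and 0.001. At week 12 Cyp2a5, a cytochrome P450, rose from 76.0 ± 15.2 to 320.0 ± 20.9 FPM (SD, n = 2 each), and Gstm3, a glutathione transferase, from 13.5 ± 1.85 to 82.4 ± 10.9. At week 16 Cyp3a11, the main drug-oxidising P450 of its family, rose from 426 ± 112 to 2317 ± 370 FPM (SD, n = 3 each). In the same week Cyp2c54 fell from 197 ± 56.0 to 70.8 ± 34.2 FPM, and Rnase4 from 672 ± 97.0 to 267 ± 26.1. Cyp2a5, Gstm3, Cyp3a11 and Cyp2c54 have close copies and Rnase4 overlaps Ang, so reads may be split between them and their values are uncertain.

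The 24 periportal genes were mostly lower. At week 16, 16 were called lower and 1 higher, with a median of -0.59 and against 12% and 16.3% of all genes, while the 9 members tested had a median of -0.40. At week 12 the counts were 12 lower and 3 higher, against 6.25% and 8.99% of all genes, with a median of -0.41. The median of the 10 members was 0.09, but it includes Rhbg, which passed the minimum level only through LIDPAD. Hal, which breaks down histidine, fell at week 16 from 113 ± 15.3 to 35.7 ± 6.04 FPM (SD, n = 3 each), a log2 change of -1.65 ± 0.14 (SE, limma adjusted p = 1.41e-05). Over all weeks 14 periportal genes were called lower and 1 higher, and 9 of the further pericentral genes higher and 3 lower, where 18.7% of all genes were called lower and 20.5% higher. Without the libraries that stood apart these were 17 and 3, and 10 and 7, against 24.4% lower and 25% higher. At week 48 without control 3, 14 of the further pericentral genes were called lower and 7 higher, against 15.4% and 22.3% of all genes. The difference between these lists was not tested.

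**Figure D4:**
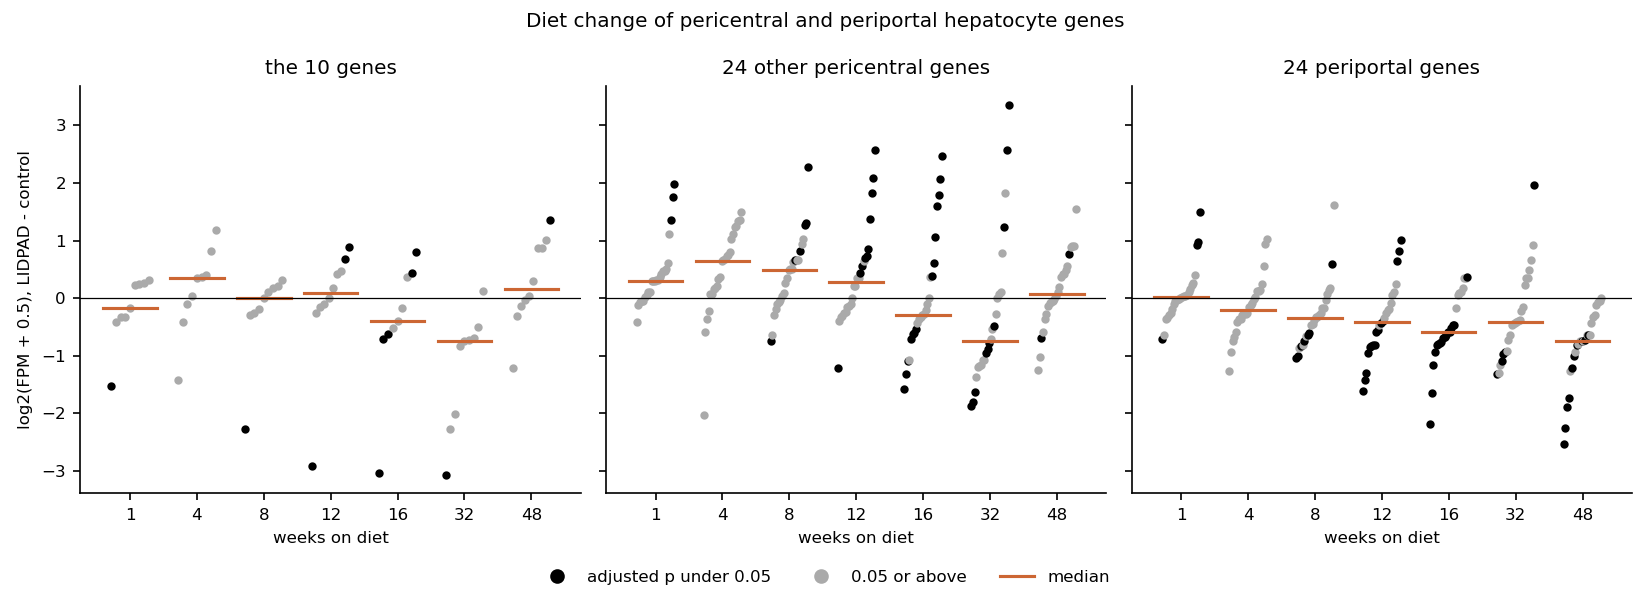
Log2 difference, LIDPAD minus control, of log2(FPM + 0.5) of each gene tested in the 3 lists by week with all libraries, where black points had an adjusted p under 0.05 and lines are medians. At week 16 the medians were -0.40 for the 10 genes, of which 9 were tested, -0.29 for the further pericentral genes and -0.59 for the periportal genes. The points and medians of the 10 genes at weeks 12 and 48 include Rhbg, tested there only through LIDPAD.

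Levels of different genes were compared per kilobase of exon in 17 control libraries, without control 3 of week 48 and across separately normalised tables. Glul had the highest level, at 176 ± 52.5 FPM per kb (SD), and ranged from 84.5 to 255. Cyp1a2 at 102 ± 43.7 and Oat at 96.4 ± 32.8 FPM per kb overlapped in range with each other and with Glul. Lect2 followed at 54.3 ± 15.3. Its lowest control, 33.3, lay above the highest of Avpr1a, 14.8, which averaged 11.4 ± 2.43 and overlapped with Slc1a2 at 7.71 ± 2.36. The regulators were lower still, with Tbx3 at 2.21 ± 0.92, Axin2 at 0.989 ± 0.47 and Lgr5 at 0.703 ± 0.299 FPM per kb, again with overlapping ranges. Rhbg was lowest, at 0.23 ± 0.125.

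With the 14 group means removed, the genes that followed Glul most closely over the 38 libraries were Rgn (r = 0.955), Mup3 (0.949), Oat (0.949), Lhpp (0.948) and Dpp4 (0.947), across libraries that share their sequencing and scaling. Those most like Axin2 were Ccdc157 (0.878), Tbx3 (0.841), Shf (0.839), Lgr5 (0.806) and Zfp780b (0.799). Both lists rested on the libraries that stood apart. Over the 34 others, the 5 most like Glul were Dmgdh (0.934), Higd1a (0.918), Bhmt2 (0.910), Slc10a1 (0.894) and Slc6a12 (0.879). For Axin2 they were Tbcel (0.805), G6pc (0.780), Dhx32 (0.754), Smurf1 (0.726) and Camsap3 (0.724). Between Glul and Oat r went from 0.949 to 0.586, between Glul and Axin2 from 0.723 to 0.092 and between Axin2 and Tbx3 from 0.841 to 0.426.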

How the data were processed

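Per the labels' protocols, total liver RNA was extracted with TRIzol, purified on columns and sequenced commercially. The values are a signal in FPM that the authors deposited in 1 table per week, in which each column of gene counts has its own size factor and is scaled to 1000000. The submitters' processing notes name HISAT2, featureCounts, DESeq2 and GRCm38, and their settings, strand and handling of multi-mapping reads are not given in the sources used here. Reads of overlapping genes therefore cannot be told apart. All of the values gave whole reads within 0.02 of a read, and a value of 2 reads occurred 5.35 times as often as 1 read.

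The 152 columns formed 38 blocks of 4 with consecutive label numbers. Within a block, chi-square per gene between 2 columns was 1.975 to 2.268, and between blocks of a group 2.762 to 30.2. The mean of a block was therefore used as 1 library and counted once. Independent reads would give about 1, so the columns of a block varied more than that, and the cause was not tested. Same-numbered control and LIDPAD libraries did not deviate together.

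A gene was tested in a week when the number of libraries at 1 FPM or more was no smaller than the smaller group. Diets were compared within each week by limma 3.58.1 in R 4.3.3, on log2(FPM + 0.5) with a mean-variance trend, two-sided, with Benjamini-Hochberg adjustment and a threshold of 0.05. A joint fit of all 14 groups gave the average, the late against early contrast and the F test. The recovered reads were also tested with edgeR 4.0.16, which called 265, 40, 670, 2073, 3948, 3862 and 1181 genes in the 7 weeks where limma called 250, 38, 743, 2078, 3928, 3810 and 1462, and with DESeq2 1.42.0. Python 3.11.15, pandas 2.3.3 and matplotlib 3.10.9 were used. Gene positions are those of GENCODE for GRCm38, and promoters those of RefSeq for GRCm38.p6. The procedures were tested on simulated data.

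The named genes are all members and, of each other list, up to 2 per direction with the smallest p in a week or in the joint fit. Central vein genes Rspo3 and Wnt2, feedback genes Rnf43 and Nkd1, and the 5 most like Glul and Axin2 were also named. Other genes of a list were not named. The members and lists were chosen with earlier results of these data known. 1 list of cell markers is not reported here.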

Additional observations from a re-analysis of the deposited data

Results flagged for a closer look

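Avpr1a in the LIDPAD group of week 32 was marked because its lowest library, LIDPAD 2, stood far from the other 4. It read 0.361 FPM there, against 5.41 to 7.11 in the others. This was 1 of 30 sets of a gene and a group tested in this way, and chance marks about 1 in 20. LIDPAD 2 is 1 of the libraries that stood apart over all genes, and its value rests on 6 reads.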

How the results depend on the processing

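With 2 libraries per diet at weeks 1 to 12, and few reads for Rhbg, Axin2 and Lgr5, small changes could not be resolved. Of the recomputed log2 changes of single genes outside the leave-one-out fits, 836 kept their direction and side of the threshold, 77 passed it anew, 15 lost it, 32 changed sign with no call in either fit and 6 changed sign with a call in 1 of them. Leaving out libraries 1 at a time, 959 kept both, 22 passed anew, 14 lost the threshold and 42 changed sign without a call. The causes were not tested.

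The number of members called moved as follows. Here and below, the number or share of all genes called is given only where it is available. A count without it is no result about the members. With every deposited column taken as its own sample, which counts 1 library up to 4 times, it was 7 at week 1, 4 at weeks 4 and 8, 5 at weeks 12 and 32 and 6 at week 48. With the spread shared over all groups it was 0 at weeks 1, 8 and 48, 1 at weeks 12 and 16 and 3 at week 32. With no filter it was 1 at weeks 4 and 12, and 2 for the average. Rescaled to equal totals it was 5 at week 12, 3 at week 48 and 2 for the average, and with quantile normalization 3 at week 48. A filter of 5 FPM gave 0 at week 48, and DESeq2 gave 3 at week 4 and 2 at week 48. Without week 32 the average called 4. Without the libraries that stood apart, chosen after seeing the data, it was 4 at week 32, 7 at week 48, 5 for the average and 3 for each of the late and F contrasts. At week 32 the first set of libraries alone gave 5 and the second set gave 9. The second set holds 1 control, assumed to vary like its 2 LIDPAD libraries, so its p-values carry no check of the control and its values are given as a description.

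At week 32 the log2 changes in the second set had the opposite sign for Glul at 0.68, Oat at 0.30, Tbx3 at 0.75 and Lect2 at 0.40, and leaving out the libraries that stood apart reversed Glul to 0.74 and Oat to 0.94. In the first set alone Glul was -1.69 (limma adjusted p = 0.0154), Oat -1.66 (adjusted p = 0.0359) and Avpr1a -3.40 (adjusted p = 0.0118). DESeq2 ended the call of Oat at week 16 (adjusted p = 0.083), and no filter that at week 12 (adjusted p = 0.106). With the spread shared, Tbx3, Cyp1a2 and Lect2 at week 16 had adjusted p of 0.449, 0.499 and 0.457. The call of Rhbg at week 12 was lost without any 1 library of that week (limma adjusted p = 0.066 to 0.465). Its call at week 48 was lost without control 1 (adjusted p = 0.0502) or without any 1 LIDPAD library (0.053 to 0.0636). A replicate block ended that call too (adjusted p = 0.133).

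Leaving out 1 library at a time gave 1 to 3 members at week 1, 0 to 4 at week 4, 1 to 2 at week 8, 1 to 5 at week 12, 4 to 5 at week 16, 1 to 2 at week 32 and 0 to 7 at week 48, the 7 being without control 3. The average gave 1 to 2, late against early 0 to 1 and the F test 0 to 0.

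Same-numbered libraries shared only a number, with correlations of deviations from -0.116 to 0.123. With a replicate block, 2 members were called at week 4, 3 at week 32 and 0 at week 48. Rescaling to equal totals changed the sign of no called change.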
